A study of Mus musculus with 18 samples.

Results

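Endothelial cells of the occluded cortex from mice labelled Hdac2 ECKO were set against endothelial cells of the same cortical side from sham mice. The comparison holds 6 of the 18 libraries of the series, 3 in each group, taken by their titles. MCAO, occlusion of the middle cerebral artery, models ischaemic stroke, and ECKO marks a deletion made in endothelial cells. The sham mice are labelled WT, and the Hdac2 ECKO mice are described as Hdac2lox/lox:Cdh5CreERT2, that is, with loxP sites around part of Hdac2 and a tamoxifen-activated Cre driven by the endothelial Cdh5 promoter. Tamoxifen at 75 mg/kg is listed for every library, sham included; the series text gives 5 doses from day 0 to day 4 for the mice with floxed alleles. Cells were taken from adult mice on day 7 of stroke. They had been sorted as CD31+, CD41- and CD45-.

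The contrast joins 2 differences, the occlusion and the labelled genotype, and within it they cannot be told apart. A further 3 libraries from the ipsilateral cortex of occluded mice labelled WT (MCAO libraries below) are given beside it. By their labels they differ from sham by the occlusion and from the Hdac2 ECKO libraries by the genotype, Cre included. The series text describes the tamoxifen doses for mice with floxed alleles, so a difference in dosing or batch cannot be told apart from the genotype. Cdh5 is active in endothelium of all organs, so a deletion made with this Cre would not be limited to the brain or to the occluded side. The labels call the mice adult with no age in weeks, and give no strain background, sex or batch. They do not say whether the 3 libraries of a group came from separate mice, so the p-values measure the spread between these libraries, part of which may be technical.

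HDAC2 is a class I histone deacetylase that acts within the Sin3, NuRD and CoREST corepressor complexes, where removal of acetyl groups from histones is associated with lower transcription. Brain endothelium forms the blood-brain barrier through tight junctions, low transcytosis and a set of transporters, which Wnt and Norrin signals through beta-catenin maintain. After ischaemia it can also take on an inflammatory state, with adhesion molecules that bind leukocytes, acute phase proteins, chemokines and interferon-induced genes.

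The sham libraries held 32563872 to 39071573 counts each. Those labelled Hdac2 ECKO, called Hdac2-labelled libraries below, held 31008561 to 45186120. Globin genes took 7.32%, 2.44% and 5.67% of the counts in sham, and 19.9%, 19.5% and 5.41% in the Hdac2-labelled libraries (exact permutation test, two-sided, p = 0.3, where 3 against 3 libraries can give no less than 0.1). Hdac2-labelled library 3 stood apart within its group. Its correlations of log2 CPM across genes with libraries 1 and 2 were 0.934 and 0.942, against 0.963 between those and 0.975 to 0.988 among the sham libraries. Levels are given in CPM, counts scaled to a common library total after TMM normalisation. In bulk RNA, fewer cells of a type and less RNA per cell cannot be told apart.

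Hdac2 (chr10, GRCm38) was read first, as a check of the label. Its level was 92, 107 and 70.9 CPM in the sham libraries, 57.6, 85 and 87.9 CPM in the Hdac2-labelled libraries and 84.4, 68.2 and 96.1 CPM in the MCAO libraries, so the groups overlapped. The log2 fold change over sham was -0.23 ± 0.32 (± SE; edgeR unadjusted p = 0.49, adjusted p = 1). The deposited value is a count over the whole gene, which does not show whether the exons between loxP sites are missing, so the deletion was not checked here, and the group is named by its label throughout. The related class I deacetylases also overlapped between groups. Hdac1 stood at 51, 29.6 and 37.8 CPM in sham and 23.1, 32.3 and 57.7 CPM in the Hdac2-labelled libraries. Hdac3 stood at 22.1, 16.7 and 14.5 CPM and 15.5, 25.4 and 43.1 CPM, and Hdac8 at 4.37, 6.72 and 2.94 CPM and 3.24, 0.481 and 3.94 CPM. Of 25 genes for class I deacetylases and their corepressor complexes, all of which passed the count filter, 10 were higher, 15 were lower and 0 had an unadjusted p-value under 0.05. Their median log2 fold change was -0.16, or 0.07 without sham library 1. The corepressor scaffold Sin3a had the smallest p-value among them, with 46.4, 29.4 and 32 CPM in sham and 12.5, 19.4 and 28.2 CPM in the Hdac2-labelled libraries (log2 -0.84 ± 0.43, edgeR unadjusted p = 0.0652).

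Across the transcriptome, 0 of 17094 tested genes (0%) passed an adjusted p-value of 0.05 in edgeR's quasi-likelihood test with Benjamini-Hochberg adjustment. The smallest adjusted p-value was 0.0797, shared by Ankrd37 and Hspa1a. At an unadjusted p-value under 0.05 stood 1221 genes (7.14%), of which 776 (4.54% of those tested) were higher in the Hdac2-labelled libraries and 445 (2.6%) were lower. The 6 libraries did not overlap between groups at 2616 genes (15.3%), 1190 higher (6.96%) and 1426 lower (8.34%). Other tools called more genes, 237 with DESeq2 and 266 with limma voom, and the split by direction moved too: the share of higher genes among those at an unadjusted p-value under 0.05 was 63.6%, but 51.9% with voom and 42.1% without Hdac2-labelled library 1. Values below are therefore given as measured levels and differences of genes that were not called, unless a call is stated.

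**Figure D1:**
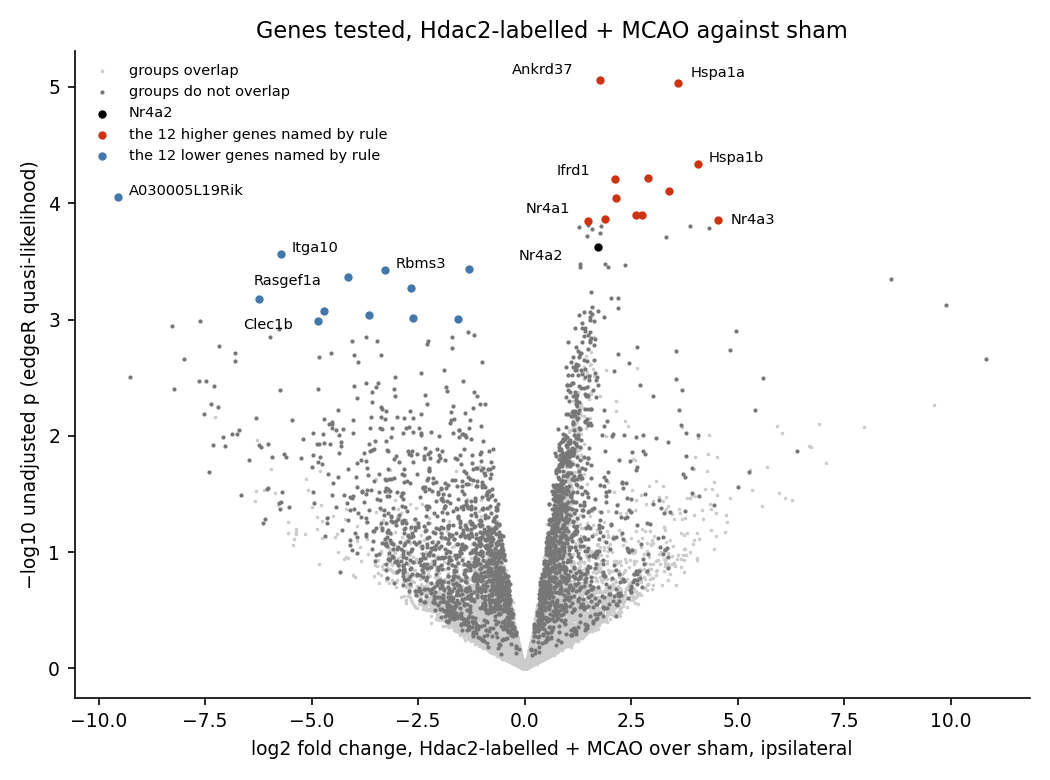
Each point is 1 of the 17094 genes tested, by its log2 fold change of the 3 Hdac2-labelled libraries over the 3 sham libraries (x axis) and −log10 of its unadjusted edgeR p-value (y axis). The 12 higher and 12 lower genes with the smallest p-values among genes whose groups did not overlap and averaged 50 or more counts in 1 group are in red and blue, and the adjusted p-value of the topmost points was 0.0797.

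The 4 stretches printed next lie upstream of the start sites of genes described below, the nuclear receptors Nr4a1 and Nr4a2, the chaperone gene Hspa1a and the hypoxia-associated gene Ankrd37. None of these genes was called against sham in edgeR. The stretches are RefSeq sequences of GRCm38.p6, written 5′ to 3′ along the gene's strand, and capitals mark motif matches found on either strand.
Nr4a1, chr15:101266596-101266845, plus strand: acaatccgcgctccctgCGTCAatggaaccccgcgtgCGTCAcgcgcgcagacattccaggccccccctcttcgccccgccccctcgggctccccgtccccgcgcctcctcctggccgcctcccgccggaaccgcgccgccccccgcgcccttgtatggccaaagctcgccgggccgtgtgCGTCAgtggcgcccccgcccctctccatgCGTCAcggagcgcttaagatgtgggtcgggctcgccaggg
Nr4a2, chr2:57124004-57124253, minus strand: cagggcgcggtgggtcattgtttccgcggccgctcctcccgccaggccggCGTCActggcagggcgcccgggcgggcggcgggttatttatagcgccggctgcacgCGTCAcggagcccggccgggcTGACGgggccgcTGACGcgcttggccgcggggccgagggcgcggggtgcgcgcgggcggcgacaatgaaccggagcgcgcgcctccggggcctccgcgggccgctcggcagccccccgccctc
Hspa1a, chr17:34972157-34972406, minus strand: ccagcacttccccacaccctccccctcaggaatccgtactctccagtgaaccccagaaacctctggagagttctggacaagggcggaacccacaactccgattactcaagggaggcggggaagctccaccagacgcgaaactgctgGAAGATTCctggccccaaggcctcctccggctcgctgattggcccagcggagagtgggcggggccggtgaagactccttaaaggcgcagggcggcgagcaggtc
Ankrd37, chr8:45999868-46000100, minus strand: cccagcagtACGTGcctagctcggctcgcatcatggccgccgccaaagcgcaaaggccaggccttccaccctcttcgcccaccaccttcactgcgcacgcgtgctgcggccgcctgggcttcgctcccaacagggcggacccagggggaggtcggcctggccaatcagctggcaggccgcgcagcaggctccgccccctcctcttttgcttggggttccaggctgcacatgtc
In the Nr4a1 and Nr4a2 stretches the capitals are TGACG or its reverse complement, the half-site bound by CREB and related factors. Each holds 4 matches in 250 bases, and 17.8% of the 32851 RefSeq upstream windows of that length hold at least 1 and 0.137% hold at least 4. The Hspa1a window holds 1 match to GAANNTTC, the core of a heat shock element, which 6.69% of windows hold. The Ankrd37 stretch, 233 bases after the annotated exon bases were left out, holds 1 ACGTG, the core of a hypoxia response element, as do 15.3% of windows of that length. The RefSeq start of Nr4a1 (chr15:101266846) lies inside the deposited gene, chr15:101254269-101274795, and that of Ankrd37 (chr8:45999850) inside chr8:45996902-46005707, so these windows belong to 1 annotated start each. A match describes the letters and does not show binding.

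All 25 tested immediate early genes, of 27 in the list, had a higher fitted level in the Hdac2-labelled than in the sham libraries (23 of 25 with limma voom), where 49.7% of all tested genes were higher. These genes encode transcription factors and feedback proteins that respond to a stimulus without new protein synthesis. Their median log2 fold change was 0.96, beside -0.01 for all genes tested, and 8 of the 25 had an unadjusted p-value under 0.05, all in the higher direction (background 4.54%). The 3 orphan nuclear receptors of the NR4A family headed the list. Nr4a1, which encodes NUR77, stood at 87.3, 87.1 and 52.3 CPM in the sham libraries and 269, 192 and 177 CPM in the Hdac2-labelled libraries. The groups did not overlap, and the log2 fold change was 1.49 ± 0.32 (edgeR unadjusted p = 0.000143, adjusted p = 0.151). Nr4a2 (NURR1) stood at 81.9, 86.9 and 81.2 CPM in sham, a narrow range, and at 328, 209 and 292 CPM in the Hdac2-labelled libraries (log2 1.73 ± 0.39, edgeR adjusted p = 0.177). Nr4a3 (NOR1) was scarce in sham at 5.12, 1.55 and 3.53 CPM and reached 151, 30 and 55.2 CPM, with library 1 far above the other two (log2 4.53 ± 0.98, edgeR adjusted p = 0.151).

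The AP-1 subunit gene Fosl2 was the next by p-value, with 50.1, 52.5 and 50.2 CPM in sham against 215, 117 and 129 CPM (log2 1.59 ± 0.41, edgeR unadjusted p = 0.000781). Ier3, a stress-induced survival gene, stood at 114, 57.8 and 79.9 CPM and 286, 347 and 192 CPM (log2 1.71 ± 0.44, unadjusted p = 0.000836 in edgeR), and Ier5 at 84, 107 and 93.9 CPM and 236, 177 and 142 CPM. None of these 3 overlapped between groups. The classical members were closer to sham. Fos stood at 664, 1056 and 1048 CPM against 1511, 1207 and 1125 CPM, Egr1 at 219, 184 and 233 CPM against 383, 194 and 166 CPM and Jun at 140.2, 112 and 297 CPM against 194, 221 and 144 CPM. Fos was above every sham library and the other two overlapped, with unadjusted p-values in edgeR of 0.229, 0.609 and 0.952. The list depended on Hdac2-labelled library 1, without which its median was 0.49 and 21 of 25 were higher.

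The MCAO libraries did not share the NR4A levels. Nr4a1 stood at 46.5, 46 and 50.8 CPM there and Nr4a2 at 40.3, 26.3 and 47.9 CPM, in both cases below every sham library. Tested directly against the MCAO libraries, the Hdac2-labelled libraries were higher by a log2 value of 2.85 ± 0.41 for Nr4a2 (edgeR adjusted p = 0.0109) and 2.15 ± 0.33 for Nr4a1 (edgeR adjusted p = 0.0147), the 2 genes called of 17094 (0.0117%). Each was higher in 3 of 3 libraries. Both calls were lost when any of 3 libraries was left out. Without Hdac2-labelled library 1 the edgeR adjusted p-values were 0.0816 for Nr4a2 and 0.199 for Nr4a1, without MCAO library 1 they were 0.18 and 0.266, and without MCAO library 2 both were 0.239. Without Hdac2-labelled library 2, Nr4a1 alone was lost, at an edgeR adjusted p-value of 0.0639. Nr4a3 stood at 17.1, 18.6 and 8.37 CPM in the MCAO libraries, between the other groups, and Fosl2 at 62.3, 31.6 and 47.1 CPM, close to sham. Ier3 was different again, at 351, 276 and 173 CPM in the MCAO libraries (log2 1.67 ± 0.44 over sham), overlapping the Hdac2-labelled range. The median of the list over sham was -0.17 in the MCAO libraries. This value and that of the Hdac2-labelled group share the same sham libraries.

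**Figure D2:**
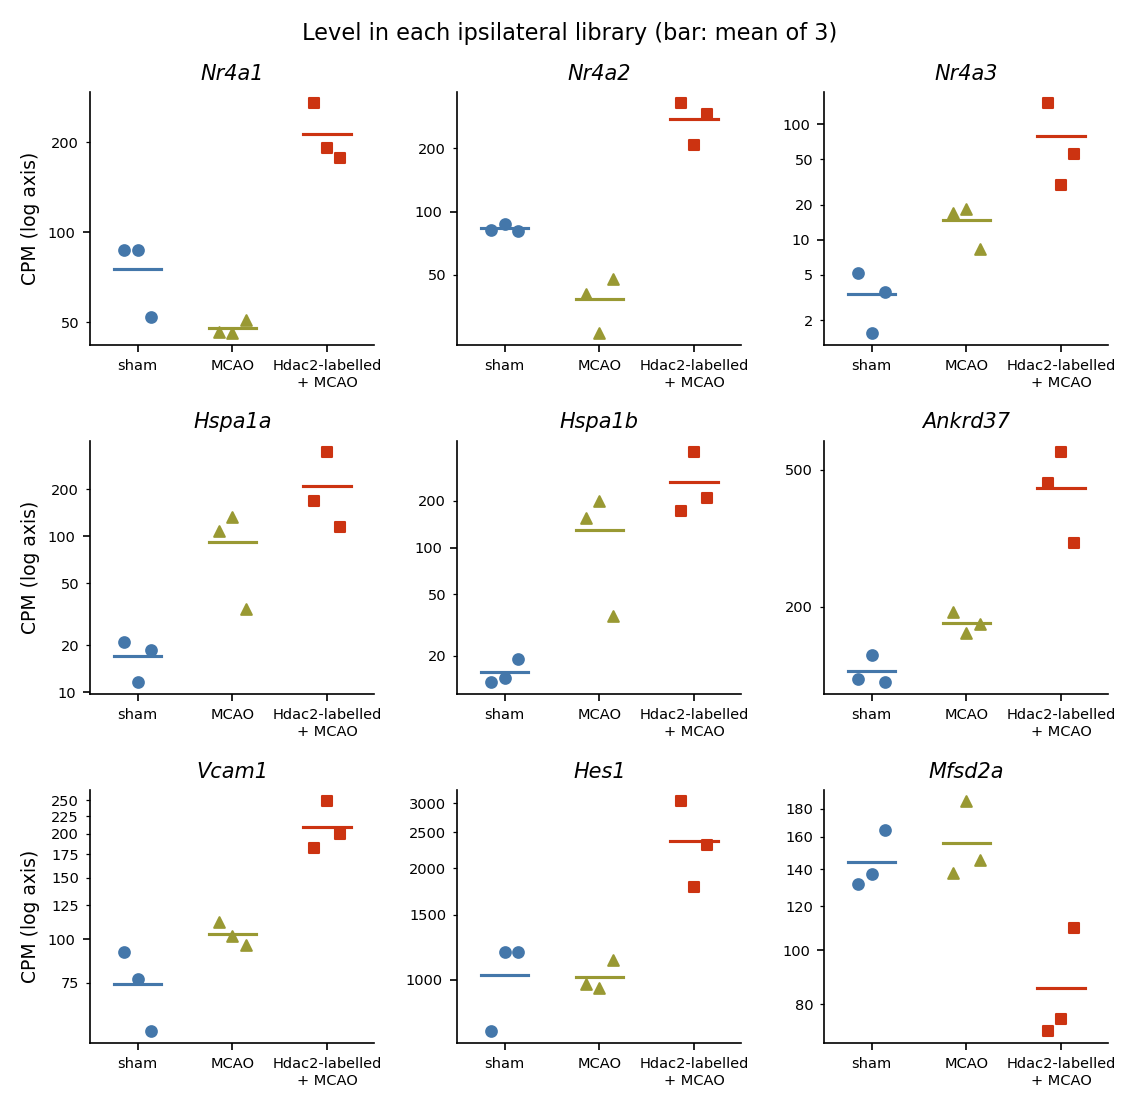
Level of 9 genes in each ipsilateral library, in CPM on log axes with a separate range per panel, for sham (circles), MCAO (triangles) and Hdac2-labelled MCAO (squares), with a bar at the mean of 3. Nr4a1 and Nr4a2 in the MCAO libraries lie below every sham library while the Hdac2-labelled libraries lie above them, and Mfsd2a is lower in the Hdac2-labelled libraries than in the other groups.

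Heat shock chaperones held some of the smallest p-values. Hspa1a encodes an inducible HSP70 that refolds damaged proteins; it stood at 20.9, 11.6 and 18.6 CPM in the sham libraries and 167, 343 and 114 CPM in the Hdac2-labelled libraries. That is a log2 fold change of 3.61 ± 0.62 (edgeR unadjusted p = 9.32e-06, adjusted p = 0.0797). Its neighbour Hspa1b, on the same strand of chromosome 17, stood at 13.5, 14.3 and 19.2 CPM and 172, 410.4 and 209 CPM (log2 4.07 ± 0.80, edgeR adjusted p = 0.151). The pair are near copies, with 3 of 250 upstream bases different and 47.1% of the 100-base windows of the Hspa1a transcript also found in Hspa1b, so reads may have been split between them or dropped. Gm20481, a predicted gene antisense to Hspa1a, stood at 7.67, 3.48 and 5.51 CPM and 39.6, 101 and 35.2 CPM, and reads of the overlapping pair cannot be told apart without the strand. The co-chaperone gene Dnajb4 stood at 29.4, 37.4 and 19.7 CPM in sham and 73.5, 61.1 and 121 CPM in the Hdac2-labelled libraries (log2 1.56 ± 0.39, edgeR adjusted p = 0.283).

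Hspa5, the HSP70 of the endoplasmic reticulum, stood at 164, 162 and 194 CPM and 291, 247 and 326 CPM, and Hsp90aa1, a cytosolic chaperone, at 231, 335 and 296 CPM and 413, 479.7 and 751 CPM. Hspa4l was lower in each Hdac2-labelled library, at 2.31, 5.66 and 11.9 CPM against 14.4, 22.3 and 17.7 CPM in sham. Over the list, 12 of 18 were higher with a median of 0.45, and 5 had an unadjusted p-value under 0.05 in the higher direction (3 without sham library 1) and 1 in the lower. The MCAO libraries had a higher median over the same sham libraries, 1.47, with Hspa1a at 108, 132 and 34.2 CPM and Hsp90aa1 at 1061, 1260.1 and 328 CPM. Directly compared, neither chaperone was called between the occluded groups (edgeR adjusted p = 0.505 and 0.624).

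Adhesion molecules that bind circulating leukocytes were among the genes with no overlap, which made up 15.3% of all genes tested. In the list of adhesion and NF-kB feedback genes 33.3% did not overlap, 6 higher and 1 lower. Vcam1, the ligand of the integrin VLA-4, stood at 91.7, 77.2 and 54.5 CPM in the sham libraries and 182, 248 and 199.6 CPM in the Hdac2-labelled libraries (log2 1.49 ± 0.33, edgeR unadjusted p = 0.000155, adjusted p = 0.151). The MCAO libraries lay just above the sham range, at 112, 102 and 96 CPM. Icam1, which binds LFA-1 and overlaps a predicted gene on the other strand, stood at 20.1, 15.4 and 17.4 CPM and 76.2, 28.2 and 41 CPM (log2 1.46 ± 0.46, edgeR unadjusted p = 0.00445). The selectin gene Sele was scarce, at 0.124, 1.12 and 0.883 CPM in sham and 4.43, 2.26 and 3.91 CPM in the Hdac2-labelled libraries. The NF-kB feedback regulators Tnfaip3 and Nfkbiz followed the adhesion genes. Tnfaip3, encoding the inhibitor A20, stood at 20.7, 23.1 and 23.4 CPM in sham, 70.6, 52.5 and 32.5 CPM in the Hdac2-labelled and 11.9, 7.24 and 17.4 CPM in the MCAO libraries. Nfkbiz stood at 32.4, 58 and 40.9 CPM, 83.6, 81.8 and 144 CPM and 36.8, 10.6 and 49.3 CPM in the same order. Of the 21 tested members of this list, 14 were higher and 4 of them had an unadjusted p-value under 0.05; the median was 0.29, but 0.87 without sham library 1 and 0.14 without sham library 2. The 4 became 2 without Hdac2-labelled library 1, sham library 1 or sham library 3.

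Acute phase genes were higher than sham in the Hdac2-labelled libraries and higher still in the MCAO libraries for several members. Lrg1, which encodes a secreted glycoprotein that modulates TGF-beta signalling in endothelium, was near 0 in sham, at 0.413, 0.143 and 0 CPM. It stood at 7.67, 8 and 8.82 CPM in the Hdac2-labelled libraries and 54.2, 104 and 21.5 CPM in the MCAO libraries, with no overlap between any of the 3 groups. Lcn2, the iron-siderophore binding protein lipocalin 2, gave 1.36, 3.34 and 2.78 CPM in sham, 13.8, 23.8 and 8.53 CPM in the Hdac2-labelled and 58.2, 61.3 and 32.1 CPM in the MCAO libraries. Negative direct log2 differences, Hdac2-labelled minus MCAO, of -2.87 ± 1.53 and -1.71 ± 0.90 were not called (edgeR adjusted p = 0.553 and 0.546). Scgb3a1, a secretoglobin, stood at 23.6, 24.5 and 32.4 CPM in sham and varied from 74.7 to 948 CPM among the Hdac2-labelled libraries (log2 3.88 ± 0.85, edgeR adjusted p = 0.151). Ch25h, which makes 25-hydroxycholesterol, stood at 12.7, 4.72 and 9.63 CPM and 46.7, 62.3 and 28.8 CPM (log2 2.35 ± 0.55, edgeR adjusted p = 0.205), and Socs3, the feedback inhibitor of gp130 and STAT3 signalling, at 7.8, 7.1 and 11.3 CPM and 41.1, 14.8 and 21.9 CPM. In all, 21 of the 26 tested members were higher, 7 of them with an unadjusted p-value under 0.05. Their median was 0.53, or 1.13 over the 20 genes that reached 20 counts in 6 libraries. Setting Saa1 and Saa2, listed at 0 in the Hdac2-labelled libraries, at the limit of 3 counts over the group left the median at 0.53. Both genes stay lower than sham at that limit, so this step could not move the median. With sham of both sides, 12 members had an unadjusted p-value under 0.05. In the MCAO libraries the median over the same sham libraries was 1.36.

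Among 16 tested chemokine genes, 13 were higher, with a median of 1.05 that became 2.45 without sham library 1. Ackr1, the atypical chemokine receptor of postcapillary venules, stood at 0.33, 1.98 and 0.963 CPM in sham and 32, 19.5 and 41 CPM in the Hdac2-labelled libraries (log2 4.82 ± 1.35, edgeR unadjusted p = 0.00184). The annotation has Ackr1 sharing exons with Cadm3 on the same strand, so its count is uncertain. Cxcl1, a neutrophil attractant, stood at 16.6, 10 and 4.76 CPM and 82.9, 69.3 and 53.3 CPM (log2 2.71 ± 0.83, edgeR unadjusted p = 0.00368), and the MCAO libraries overlapped sham at 22.6, 49.6 and 7.13 CPM. Cxcl2 was lower in abundance, at 1.73, 0.262 and 0.321 CPM and 7.27, 6.2 and 3.12 CPM.

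Interferon-induced genes stood mostly higher, 26 of 28, with a median of 0.53 and 0.69 in the MCAO libraries over the same sham libraries. Isg15, a ubiquitin-like modifier, gave 59.9, 23.2 and 47.4 CPM in sham, 286, 198 and 75 CPM in the Hdac2-labelled and 101, 187 and 130.4 CPM in the MCAO libraries (log2 2.10 ± 0.62, edgeR unadjusted p = 0.00278). Irf1, an interferon-induced transcription factor, stood at 48.4, 34.6 and 28.9 CPM and 65.4, 78.6 and 103 CPM, and the antiviral membrane protein gene Ifitm3 at 1533, 954 and 1229.7 CPM and 3892, 2864 and 1574 CPM. A total of 4 members, those 3 and Xaf1, had an unadjusted p-value under 0.05, and 2 did without sham library 2 or sham library 3. The light chain of MHC class I, B2m, stood at 4809, 3836 and 4925 CPM in sham and 19562, 12764 and 7376 CPM in the Hdac2-labelled libraries (log2 1.55 ± 0.53, edgeR unadjusted p = 0.00812), without overlap. The heavy chain gene H2-K1 stood at 392, 299 and 319 CPM and 464, 444 and 533 CPM. Of 16 class I presentation genes 12 were higher, and the median was 0.65 against 1.26 in the MCAO libraries. B2m alone was under an unadjusted p-value of 0.05 (0 without Hdac2-labelled library 1), 6.25% of the list, beside 7.14% of all genes tested.

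**Figure D3:**
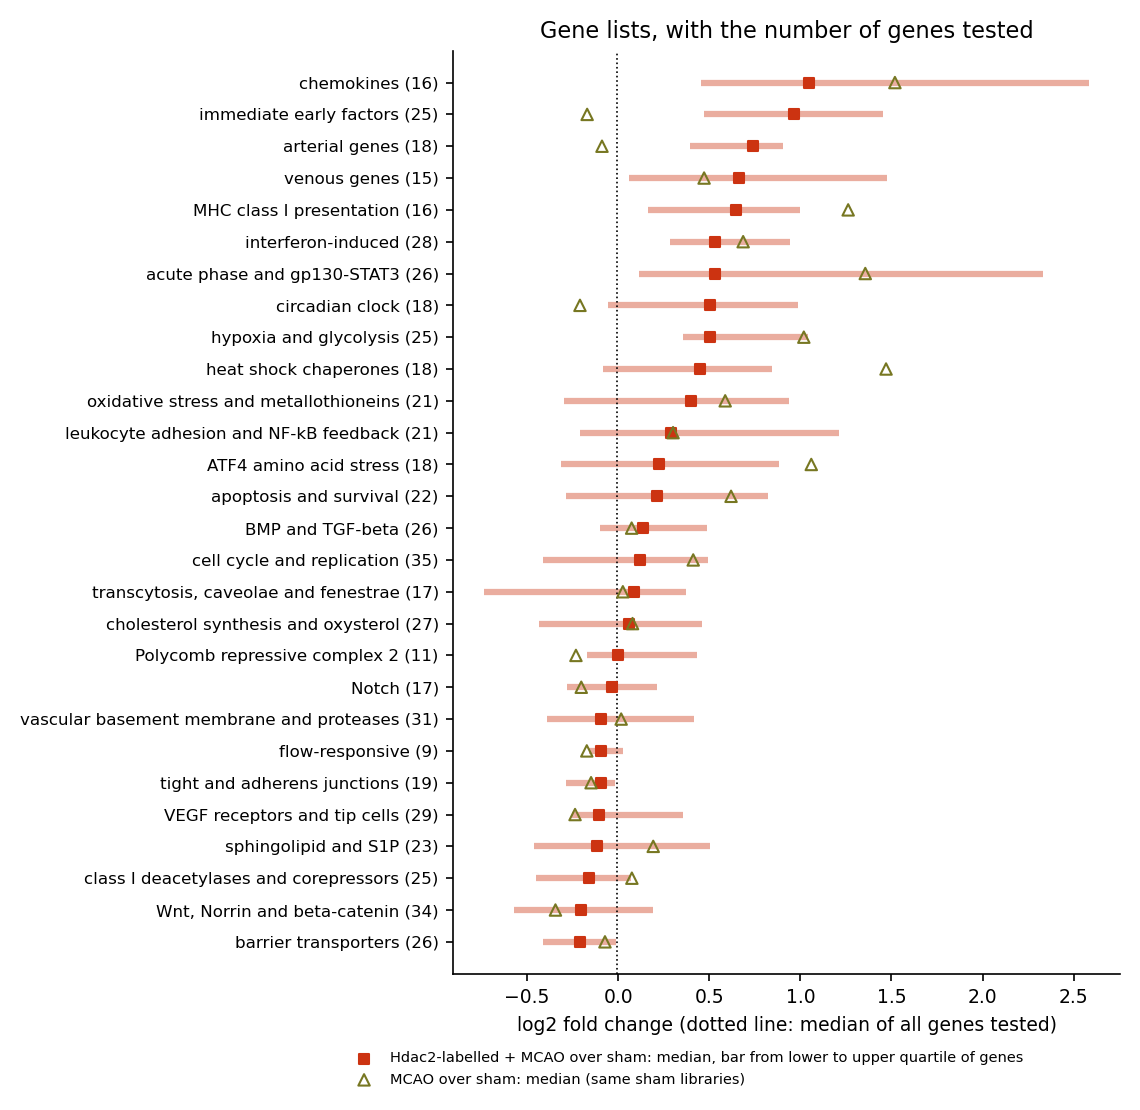
Median log2 fold change over sham of each gene list (filled squares, with a bar from the lower to the upper quartile of its genes) in the Hdac2-labelled libraries, and the median in the MCAO libraries over the same sham libraries (open triangles). The immediate early, arterial and clock lists have medians of 0.96, 0.74 and 0.51 in the Hdac2-labelled libraries and values near or below 0 in the MCAO libraries, while heat shock, acute phase and ATF4 lists lie higher in the MCAO libraries.

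Hypoxia and glycolysis genes were higher in 21 of 25 cases, with a median of 0.50, or 0.83 without sham library 1. Ankrd37, an ankyrin-repeat gene activated under low oxygen, had the smallest p-value of all genes tested. It stood at 124, 145 and 121 CPM in the sham libraries, 459, 562 and 306 CPM in the Hdac2-labelled libraries and 193, 168 and 178 CPM in the MCAO libraries (log2 1.77 ± 0.30 over sham, edgeR unadjusted p = 8.74e-06, adjusted p = 0.0797). The neighbouring Lrp2bp, whose exons overlap those of Ankrd37 on the other strand, gave 27.4, 24.7 and 22.3 CPM and 101, 127 and 47.6 CPM, and the counting could have split reads between them. Bnip3, a mitophagy receptor, stood at 140.2, 294 and 136 CPM in sham and 364, 488 and 649 CPM in the Hdac2-labelled libraries, and the peptide hormone gene Adm (adrenomedullin) at 28.4, 13.3 and 26.8 CPM and 49.8, 52.8 and 91.2 CPM. The glycolytic enzyme gene Pgk1 stood at 49.7, 53.4 and 47.2 CPM and 75.3, 72.2 and 114 CPM. Those 4 hypoxia genes had unadjusted edgeR p-values from 8.74e-06 to 0.0178, 2 genes of the list were under 0.05 without Hdac2-labelled library 3, and the median of the list in the MCAO libraries was 1.02.

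Oxidative stress genes were mixed. Prdx1, a peroxide-reducing enzyme, stood at 1116, 1586 and 1455 CPM in sham and 4128, 3861 and 2036 CPM in the Hdac2-labelled libraries (log2 1.27 ± 0.36, edgeR unadjusted p = 0.00209). Nqo1, a quinone reductase and common target of NRF2, went the other way, with 5.01, 4.38 and 2.25 CPM in sham, 0.0661, 0.602 and 0.294 CPM in the Hdac2-labelled and 7.29, 9.97 and 6.98 CPM in the MCAO libraries (log2 -3.58 ± 1.15 over sham, edgeR unadjusted p = 0.00515). The lipid peroxidase gene Gpx4 stood at 395, 126 and 339.8 CPM in sham and 1398, 1561 and 260.4 CPM, where Hdac2-labelled library 3 lay within the sham range. The list had 15 of 21 genes higher, a median of 0.40 and 4 higher and 1 lower at an unadjusted p-value under 0.05. The median was 0.26 without Hdac2-labelled library 2, 0.21 with sham of both sides and 0.10 with a covariate for counts of olfactory and vomeronasal receptor genes. The 4 higher genes became 2 without Hdac2-labelled library 1 or sham library 2, 1 without Hdac2-labelled library 2, 8 without library 3 and 0 with sham of both sides. Among 18 ATF4 targets of amino acid stress, 10 were higher with a median of 0.23, beside 1.06 in the MCAO libraries; it was -0.56 with voom and -0.05 without Hdac2-labelled library 1. Ddit3, which encodes CHOP and overlaps antisense genes, stood at 36.8, 19.1 and 31.8 CPM in sham and 83.6, 83.5 and 72.1 CPM (log2 1.45 ± 0.46, edgeR unadjusted p = 0.00455).

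Barrier transporters were lower in 20 of 26 cases, by small amounts, with a median log2 fold change of -0.21. No member was higher at an unadjusted p-value under 0.05 and 3 were lower (background 2.6%), but 0 without Hdac2-labelled library 2 or sham library 3, 1 without sham library 2 or with sham of both sides, and 6 with the olfactory and vomeronasal receptor covariate. The median was -0.10 without sham library 2 and -0.34 without sham library 1. Mfsd2a, the lysophospholipid transporter that also limits transcytosis, stood at 131, 137 and 165 CPM in the sham libraries, 71.6, 75.2 and 109.7 CPM in the Hdac2-labelled libraries and 138, 185 and 146 CPM in the MCAO libraries. Every Hdac2-labelled library lay below both other groups (log2 -0.76 ± 0.32 over sham, edgeR unadjusted p = 0.0286; -0.87 ± 0.32 against MCAO, edgeR adjusted p = 0.426). The organic anion transporter Slc22a8 stood at 303, 259.9 and 257 CPM in sham and 129, 153 and 233 CPM in the Hdac2-labelled libraries, and the ApoE receptor Lrp8 at 126, 189 and 181 CPM and 87.2, 52.4 and 131 CPM. Slc38a3, a glutamine transporter, stood at 124, 94.3 and 117 CPM in sham, 67.7, 71.1 and 60.2 CPM in the Hdac2-labelled and 130.4, 159 and 133 CPM in the MCAO libraries. The most used barrier genes differed little: the glucose transporter gene Slc2a1 stood at 1002, 674 and 975 CPM and 942, 774 and 645 CPM (log2 -0.17 ± 0.32), and the efflux pump gene Abcb1a at 989, 750.0 and 999 CPM and 1019.9, 802 and 883 CPM (log2 -0.02 ± 0.27).

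Junction genes showed 0 of 19 members under an unadjusted p-value of 0.05 (2 without Hdac2-labelled library 1, 1 without sham library 2), and 14 were lower. The tight junction protein claudin-5, Cldn5, stood at 1385, 456 and 1055 CPM in sham and 1233, 1067 and 516 CPM in the Hdac2-labelled libraries (log2 -0.04 ± 0.55). VE-cadherin, Cdh5, whose promoter drives the Cre, stood at 311, 259 and 311 CPM and 542, 328 and 289.9 CPM (log2 0.40 ± 0.31). Genes of transcytosis were split, 9 of 17 higher, with Nrp1 and Plvap lower at an unadjusted p-value under 0.05. That count was 1 without Hdac2-labelled library 1 or 3 or sham library 1 or 3. Nrp1, a coreceptor of VEGF and semaphorins, stood at 154, 132 and 169 CPM in sham, 57.2, 57.2 and 119.6 CPM in the Hdac2-labelled and 65.6, 54.8 and 113 CPM in the MCAO libraries, so both occluded groups lay below sham. Plvap, the diaphragm protein of fenestrae and caveolae, was scarce at 12.9, 1.81 and 2.62 CPM in sham and 1.45, 0.542 and 0.353 CPM in the Hdac2-labelled libraries.

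Wnt and Norrin pathway genes were lower in 22 of 34 tested cases, with a median of -0.20. At an unadjusted p-value under 0.05 stood 3 lower and 1 higher, 11.8% of the list, beside 7.14% of all genes tested. The 3 became 1 without Hdac2-labelled library 3, sham library 1 or sham library 3. The Norrin receptor gene Fzd4 stood at 109, 106 and 106 CPM in sham and 77.3, 64.2 and 53.2 CPM in the Hdac2-labelled libraries (log2 -0.72 ± 0.35, edgeR unadjusted p = 0.0532). Fzd6, another Frizzled receptor gene, stood at 289.5, 274 and 267 CPM and 148, 211 and 184 CPM (log2 -0.61 ± 0.28, edgeR unadjusted p = 0.0386), and the Wnt feedback deacylase gene Notum at 49.4, 39.1 and 44.4 CPM and 26.9, 31.3 and 19.6 CPM. Apc, part of the complex that degrades beta-catenin, was also lower, at 37.9, 35.1 and 39.7 CPM against 67.1, 80.8 and 66.4 CPM. The beta-catenin target Axin2 stood at 36.3, 34.7 and 33.4 CPM and 20.2, 41.5 and 25.2 CPM (log2 -0.27 ± 0.44), and the beta-catenin gene Ctnnb1 at 1007, 1357 and 1425 CPM and 1473, 1181 and 1177 CPM (log2 0.02 ± 0.31). The gene higher at an unadjusted p-value under 0.05 was Dkk2, a secreted Wnt modulator, with 18.1, 0.0602 and 12.4 CPM in the Hdac2-labelled libraries, where library 2 lay below all sham libraries at 3.14, 0.381 and 0.535 CPM.

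In the VEGF list 11 of 29 genes were higher, with a median of -0.10. The receptor genes overlapped between groups: Kdr stood at 290.1, 414 and 461 CPM in sham and 383, 307 and 311 CPM in the Hdac2-labelled libraries, and Flt1 at 2429, 2157 and 2509 CPM and 2694, 1851 and 2262 CPM. Esm1, a tip cell gene, stood at 16, 1.43 and 10.3 CPM in sham and 0.529, 0.421 and 1.71 CPM in the Hdac2-labelled libraries, and sham library 2 lay within the Hdac2-labelled range (log2 -3.38 ± 1.57, edgeR unadjusted p = 0.0432). In the Notch list, 2 transcriptional targets had unadjusted p-values under 0.05 (1 without Hdac2-labelled library 3, sham library 1 or sham library 3). These 2 are 11.8% of the list, beside 7.14% of all genes tested. Hes1, a transcriptional repressor, stood at 725, 1186 and 1186 CPM in sham, 3032, 1775 and 2316 CPM in the Hdac2-labelled and 970.4, 951 and 1131 CPM in the MCAO libraries (log2 1.20 ± 0.33 over sham, edgeR unadjusted p = 0.00171; 1.22 ± 0.33 against MCAO, edgeR adjusted p = 0.301). Hey1 stood at 65.3, 71.3 and 63.8 CPM, 85.3, 117 and 157 CPM and 55.6, 71 and 56.8 CPM. The receptor gene Notch1 stood at 105, 114 and 117 CPM and 114, 90.4 and 55.2 CPM in sham and Hdac2-labelled libraries, and the ligand gene Dll4 at 36.5, 31.8 and 38.9 CPM and 48.2, 42.1 and 46.6 CPM. The Notch list as a whole had 7 of 17 genes higher and a median of -0.03.

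For BMP and TGF-beta, 15 of 26 genes were higher, with a median of 0.14. Id2, a target of BMP signalling, stood at 205, 282 and 310.4 CPM in sham and 589, 459 and 509.7 CPM in the Hdac2-labelled libraries (log2 0.97 ± 0.36, edgeR unadjusted p = 0.0142), while Id1 stood at 916, 663 and 792 CPM and 759, 955 and 565 CPM. The inhibitory SMAD gene Smad7 stood at 60.2, 65.3 and 68.8 CPM and 95.2, 130.4 and 99.8 CPM. Ltbp1, which anchors latent TGF-beta in matrix, was lower at 1.26, 0.241 and 0.97 CPM against 9.08, 7.34 and 4.44 CPM in sham and 1.6, 7.46 and 10.6 CPM in the MCAO libraries (log2 -3.08 ± 0.95 over sham, edgeR unadjusted p = 0.00397). Of the 9 tested flow-responsive genes, the vasoconstrictor gene Edn1 stood higher at 211, 269 and 230.2 CPM against 168, 125 and 106 CPM, and the shear-induced factor Klf2 overlapped at 573, 473 and 638 CPM in sham and 681, 448 and 375 CPM.

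Basement membrane genes were balanced, 13 of 31 higher. Unadjusted p-values under 0.05 were held by 2 proteases of the ADAMTS family, in opposite directions. That is 6.45% of the list, beside 7.14% of all genes tested. Adamts1 stood at 179, 198 and 176 CPM in sham, 532, 269 and 322 CPM in the Hdac2-labelled and 119, 104 and 107 CPM in the MCAO libraries (log2 1.02 ± 0.31 over sham, edgeR unadjusted p = 0.003). The 3 groups did not overlap, with the MCAO libraries lowest, and the direct difference between the occluded groups was 1.77 ± 0.31 (edgeR adjusted p = 0.0639). Adamts5 was lower in both occluded groups, at 0.297, 0.542 and 0.882 CPM in the Hdac2-labelled and 0.0456, 0.221 and 0.191 CPM in the MCAO libraries against 3.22, 6.82 and 4.31 CPM in sham. The collagen IV gene Col4a1 stood at 274, 193 and 253 CPM in sham and 358, 174 and 147 CPM in the Hdac2-labelled libraries.

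Arterial genes were higher in 16 of 18 cases and venous genes in 11 of 15, and in each list 7 genes had an unadjusted p-value under 0.05, all higher (background 4.54%). The arterial median was 0.74 and the venous median 0.66, with -0.09 and 0.47 in the MCAO libraries over the same sham libraries. Against sham libraries of both sides the medians were 0.45 and 0.43, and the venous median was 0.42 without Hdac2-labelled library 1. Mgp, the matrix Gla protein gene that marks arterial endothelium, stood at 122, 48.9 and 71.9 CPM in sham and 319, 350.1 and 228 CPM in the Hdac2-labelled libraries (log2 1.88 ± 0.44, edgeR unadjusted p = 0.000334, adjusted p = 0.205). The tetraspanin-like gene Tm4sf1 stood at 1631, 1405 and 1369 CPM and 3168, 2851 and 2623 CPM (log2 0.97 ± 0.28, edgeR unadjusted p = 0.00254). The kinase gene Bmx stood at 59.3, 57 and 44 CPM in sham, 82.2, 83.1 and 131 CPM in the Hdac2-labelled and 35, 23.4 and 42.2 CPM in the MCAO libraries. Sox17, an arterial transcription factor, was lower in each Hdac2-labelled library, at 274, 242 and 236 CPM in sham and 191, 182 and 203 CPM (log2 -0.38 ± 0.28, edgeR unadjusted p = 0.19). The 7 arterial genes became 4 without Hdac2-labelled library 3 and 3 without sham library 2 or sham library 3. Venous genes included the inflammatory Vcam1, Icam1, Ackr1, Lcn2 and Lrg1, described above. Apart from these, von Willebrand factor, Vwf, stood at 196, 115 and 141 CPM and 232, 265 and 221 CPM (log2 0.66 ± 0.32, edgeR unadjusted p = 0.0474), and the venous identity factor Nr2f2 at 27.5, 35.8 and 25.9 CPM and 37.7, 31 and 51.1 CPM.

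**Figure D4:**
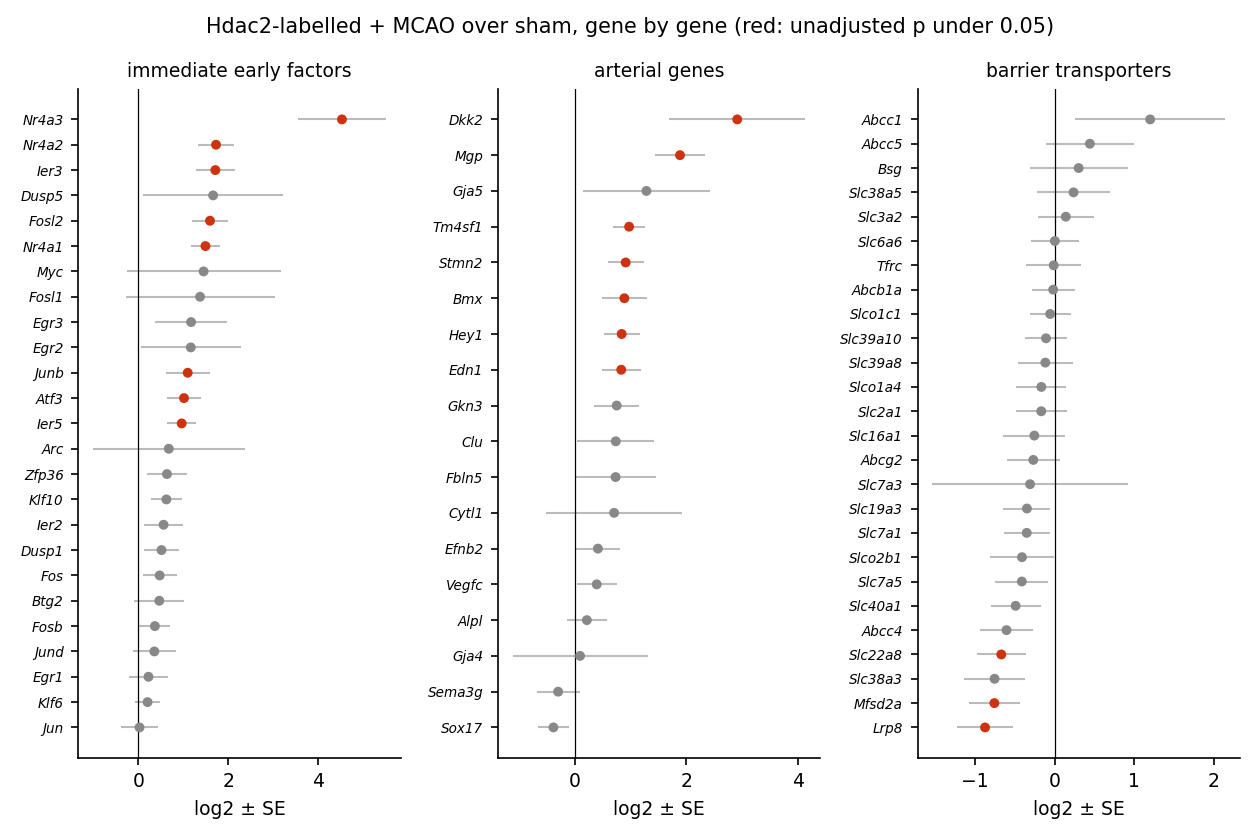
Log2 fold change ± SE of the Hdac2-labelled over the sham libraries for each tested gene of the immediate early, arterial and barrier transporter lists, sorted within each list, with genes at an unadjusted p-value under 0.05 in red. All 25 immediate early genes lie to the right of 0, and 20 of 26 barrier transporters lie to the left.

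Circadian genes had a median of 0.51, which was 0.30 without Hdac2-labelled library 1 and 0.25 without library 2. Bhlhe40, a clock repressor that also responds to hypoxia and stimulation, stood at 75.1, 89.1 and 87.3 CPM in sham and 294, 187 and 180.3 CPM in the Hdac2-labelled libraries (log2 1.39 ± 0.36, edgeR unadjusted p = 0.000861). Arntl, the activator BMAL1, was lower at 6.28, 11.7 and 14 CPM against 29.7, 41.3 and 35.5 CPM (log2 -1.74 ± 0.58, edgeR unadjusted p = 0.00726). The repressor gene Nfil3, which acts in the clock and in immune cells, stood at 0.701, 0.715 and 0.268 CPM in sham and 3.24, 1.02 and 16.8 CPM in the Hdac2-labelled libraries (log2 3.64 ± 1.19, edgeR unadjusted p = 0.00603). The labels give no hour of collection.

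Survival genes were led by Bcl2, the anti-apoptotic founder of its family, at 8.66, 12.9 and 9.39 CPM in sham, 2.31, 2.35 and 3.94 CPM in the Hdac2-labelled and 9.25, 10.8 and 13.3 CPM in the MCAO libraries (log2 -1.85 ± 0.57 over sham, edgeR unadjusted p = 0.00378). Its relative Bcl2l1 stood at 48, 27.7 and 40.3 CPM, 17.2, 27.3 and 13.3 CPM and 106, 152 and 50.1 CPM in the same order. The Hdac2-labelled libraries were lowest for both and the MCAO libraries highest for Bcl2l1, where the direct log2 difference was -2.41 ± 0.44 (edgeR adjusted p = 0.0639, or 0.0322 without MCAO library 3). Pmaip1, the pro-apoptotic NOXA, stood at 23.5, 26.5 and 19.4 CPM in sham and 19.5, 89.9 and 63 CPM in the Hdac2-labelled libraries, with overlap. Of 22 genes in the list 13 were higher. At an unadjusted p-value under 0.05 stood 13.6% of the list, beside 7.14% of all genes tested, 1 higher and 2 lower. The 2 became 1 without Hdac2-labelled library 1 or 3 or sham library 1 or 3.

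Lipid lists had medians near that of all genes. In the sphingolipid list 9 of 23 genes were higher, with Plpp3, a lipid phosphatase that degrades sphingosine-1-phosphate and lysophosphatidic acid, at 57.6, 22.9 and 61.4 CPM in sham, 14.4, 19.7 and 19.1 CPM in the Hdac2-labelled and 19.3, 10.5 and 13.8 CPM in the MCAO libraries (log2 -1.42 ± 0.52 over sham, edgeR unadjusted p = 0.0129). The ceramidase gene Asah2 stood at 9.65, 4.12 and 11.9 CPM in sham and 48.6, 23.3 and 23.6 CPM in the Hdac2-labelled libraries, and Degs1, which makes ceramide from dihydroceramide, at 54.1, 77.5 and 47.6 CPM and 116, 91.1 and 108 CPM. The receptor gene S1pr1 stood at 516, 485 and 532 CPM in sham and 577, 345 and 404 CPM in the Hdac2-labelled libraries. Cholesterol synthesis had 14 of 27 genes higher and a median of 0.06. In the cell cycle list 21 of 35 tested genes were higher, and Pcna, the replication clamp, at 88.7, 103 and 97 CPM and 163, 143 and 166 CPM was the 1 gene with an unadjusted p-value under 0.05 (edgeR, 0.0141), and 0 were without sham library 1. The proliferation marker Mki67 stood at 0.66, 0.286 and 0.482 CPM and 0.0661, 0.181 and 0.47 CPM. Polycomb repressive complex 2 had 6 of 11 tested genes higher and 0 under an unadjusted p-value of 0.05, with the methyltransferase gene Ezh2 at 13.1, 6.48 and 6.98 CPM and 4.69, 19.2 and 0.882 CPM and its partner Eed at 57.4, 97.9 and 56.3 CPM and 87.5, 87.6 and 128 CPM.

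Genes outside these lists also had small p-values. Ifrd1, a stress-responsive coregulator that works with histone deacetylase complexes, stood at 44.5, 54.1 and 54.1 CPM in sham, 239.7, 231 and 192 CPM in the Hdac2-labelled and 79.2, 89.9 and 69 CPM in the MCAO libraries (log2 2.12 ± 0.43 over sham, edgeR unadjusted p = 6.19e-05, adjusted p = 0.151). S100a6, a calcium-binding protein gene, stood at 38, 8.87 and 24.5 CPM and 318, 99.5 and 67.1 CPM (log2 2.76 ± 0.59, edgeR adjusted p = 0.151). The predicted genes Gm14403 at 7.45, 8.2 and 6.66 CPM against 66.9, 53.7 and 45.2 CPM, Gm20594 at 6.85, 8.22 and 12.8 CPM against 52.8, 39.3 and 31.5 CPM and 3830403N18Rik at 16.9, 19.7 and 12.4 CPM against 176, 96.3 and 30.2 CPM completed the 12 higher genes. Predicted genes such as these can share reads with similar copies elsewhere, so their counts are uncertain.

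The 12 lower genes were scarcer. Lmntd1 and Nrep were the most abundant among them. Nrep, a regulator of TGF-beta responses and of neuronal regeneration, stood at 117, 109.6 and 101 CPM in sham, 51.5, 37.7 and 43.1 CPM in the Hdac2-labelled and 49.5, 27.6 and 48.7 CPM in the MCAO libraries (log2 -1.30 ± 0.31 over sham, edgeR adjusted p = 0.205). Lmntd1 stood at 90.5, 110.4 and 113 CPM, 20.1, 34.4 and 52.2 CPM and 32.7, 20.2 and 34 CPM in the same order, so for both genes the occluded groups lay below sham together. For the next 4 genes every Hdac2-labelled library lay below sham, as the rule that named them required, and also below every MCAO library. Over all genes tested, the occluded groups did not overlap at 19.9%, in either direction. Mcph1, a chromosome condensation gene, stood at 4.83, 5.36 and 5 CPM in sham, 0.198, 0.301 and 0.706 CPM in the Hdac2-labelled and 5.29, 5.12 and 7.89 CPM in the MCAO libraries (direct log2 -3.91 ± 0.96, edgeR adjusted p = 0.247). Tpcn2, a lysosomal cation channel gene, stood at 2.45, 1.38 and 2.89 CPM, 0.132, 0 and 0.118 CPM and 2.23, 2.52 and 3.4 CPM, and Rasgef1a, a Ras exchange factor gene, at 3.53, 1.91 and 4.66 CPM, 0.264, 0.12 and 0.176 CPM and 4.1, 2.47 and 2.15 CPM. Mipol1 stood at 17, 10.4 and 14.1 CPM, 0.595, 3.67 and 2.29 CPM and 8.09, 11.4 and 14.8 CPM. None of these 4 passed the direct test.

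The RNA-binding protein gene Rbms3 stood at 10.4, 13.1 and 7.49 CPM in sham and 0.463, 1.69 and 1.03 CPM in the Hdac2-labelled libraries, and Peli2, a ubiquitin ligase of Toll-like receptor signalling, at 12.9, 6.22 and 12.6 CPM and 3.04, 1.66 and 0.5 CPM. The folate carrier gene Slc19a1 stood at 1.2, 1.43 and 2.62 CPM and 0, 0 and 0.0588 CPM, the integrin gene Itga10 at 3.94, 4.17 and 1.79 CPM and 0, 0.0602 and 0.118 CPM, and Clec1b, the podoplanin receptor of platelets and myeloid cells, at 6.31, 11.5 and 9.02 CPM and 0.198, 0.481 and 0.235 CPM. Itga10, Clec1b and Peli2 share exons with other annotated genes on the same strand, as do Mipol1 and Rasgef1a above. A030005L19Rik was at 0 in the 3 Hdac2-labelled libraries and at 3.34, 2.67 and 1.18 CPM in sham, 77.9-fold lower when set at 3 counts over the group (0.0308 CPM). That value takes each count as a separate event, and the fold would be smaller if both mates of a read pair were counted.

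The sorted cells carried the endothelial markers. The 16 endothelial markers were all above 0 in every library, with a summed level of 27664 to 32963 CPM in sham and 31146 to 51105 CPM in the Hdac2-labelled libraries (exact permutation test, two-sided, p = 0.2), and 7 of 16 were higher. Itm2a had the smallest p-value among them, at 5358, 13093 and 6269 CPM in sham and 23485, 15310.0 and 10168 CPM in the Hdac2-labelled libraries (edgeR unadjusted p = 0.0205). Pericyte and smooth muscle markers were lower in the Hdac2-labelled libraries. Their sum was 212.5, 143.8 and 220.5 CPM in sham and 99.4, 28.5 and 30.8 CPM in the Hdac2-labelled libraries, with no overlap (exact permutation p = 0.1, the smallest possible, and 0.325 after adjustment over 13 library measures). Of the 15 tested, 14 were lower and 6 of these had an unadjusted p-value under 0.05 (background 2.6%), with a median log2 fold change of -2.22 (-1.52 without sham library 3). The 6 became 3 without Hdac2-labelled library 3 and 4 without library 2, 9 with DESeq2 and 11 with voom. The MCAO libraries summed to 149.7, 49.0 and 109.1 CPM, the first within the sham range. Their median log2 fold change over the same sham libraries was -0.78. Vtn stood at 13.6, 6.39 and 10.8 CPM in sham and 0.991, 0.903 and 0.823 CPM in the Hdac2-labelled libraries, Acta2 at 31.9, 8.15 and 27 CPM and 6.48, 0.181 and 0.323 CPM, and Pdgfrb at 4.17, 4.48 and 4.2 CPM and 1.26, 0.301 and 0.0588 CPM. At most 1 of the 16 markers was at 0 in any sham or Hdac2-labelled library. The part of pericyte and smooth muscle RNA in the lower levels of Adamts5, Ltbp1 and the other lower genes was not tested.

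Microglial and macrophage markers stood the other way, with sums of 52.6, 44.0 and 59.8 CPM in sham and 149, 92.5 and 107 CPM (exact permutation p = 0.1, adjusted 0.325). The MCAO libraries summed to 104, 103 and 160 CPM. Of the 17 markers tested, 13 were higher and 4 lower, and 2 had an unadjusted edgeR p-value under 0.05. Sham and Hdac2-labelled libraries did not overlap at 11.8% of these markers, beside 15.3% of all genes tested. The complement gene C1qb was at 0, 0 and 0.161 CPM and 2.71, 0 and 0.118 CPM, and 5 of 18 markers were at 0 in each sham library and 2, 4 and 6 in the Hdac2-labelled libraries. Fibroblast markers summed to 6.85, 7.22 and 6.42 CPM in sham and 16.8, 8.76 and 15.4 CPM (exact permutation p = 0.1, adjusted 0.325). Their direction depended on the scarce members. The median log2 fold change was 1.17 over 9 tested genes, but -1.13 over the 5 genes that reached 20 counts in 6 libraries. Neuronal markers summed to 115, 60.7 and 93.5 CPM against 133, 183 and 174 CPM (exact permutation p = 0.1, adjusted 0.325), with Stmn2, also an arterial gene in brain endothelium, as the main contributor at 109, 54.4 and 88.3 CPM and 129, 178 and 167 CPM. Red cell markers had a median log2 fold change of 2.14, or 1.01 when globin genes were left out. Their sum was 297983 and 251442 CPM in Hdac2-labelled libraries 1 and 2. In library 3 it was 49351 CPM, within the sham range of 19263 to 59055 CPM. Lymphocyte and neutrophil, platelet, astrocyte and oligodendrocyte sums also overlapped between groups. In these lists S100a9, of neutrophils, stood at 8.13, 4.86 and 0 CPM and 0, 0 and 0.0882 CPM, and Gfap, of astrocytes, at 0.165, 0.143 and 0.187 CPM and 0, 0 and 0.0588 CPM. The part of these cells' RNA in the inflammatory and other gene lists was not tested.

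**Figure D5:**
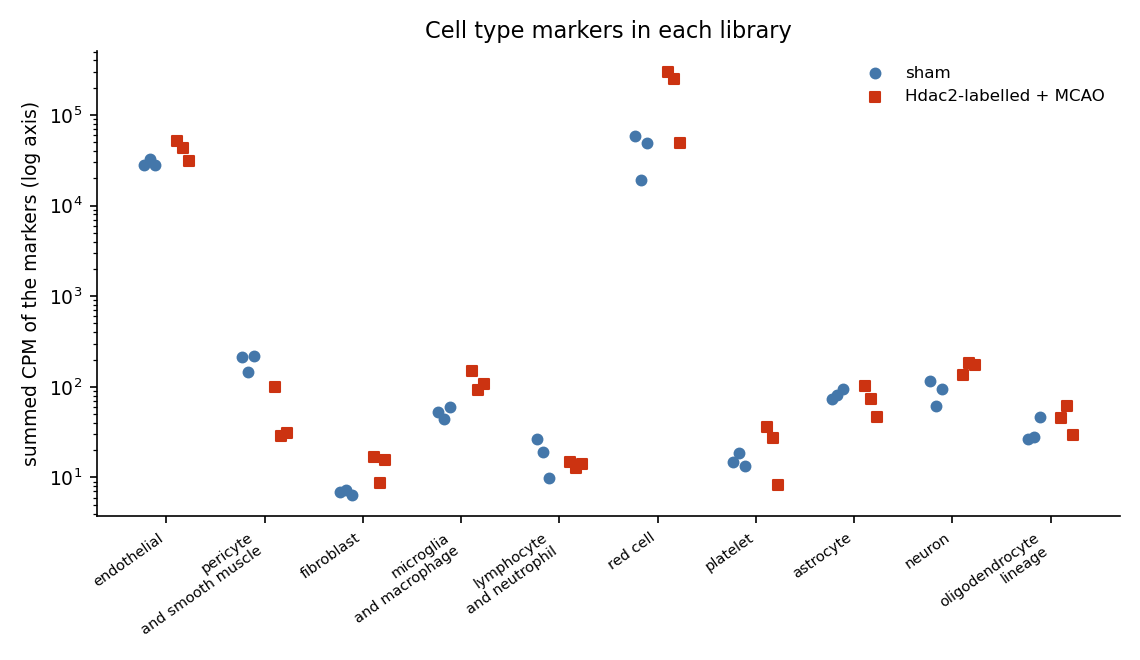
Summed CPM of the markers of each cell type (log axis) in each of the 3 sham (circles) and 3 Hdac2-labelled (squares) libraries. Pericyte and smooth muscle sums are lower in all Hdac2-labelled libraries (28.5 to 99.4 CPM against 143.8 to 220.5 CPM), and microglial sums are higher.

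Set against the MCAO libraries directly, 1683 genes (9.85%) had an unadjusted p-value under 0.05, and the MCAO libraries against sham gave 1210 (7.08%) with 0 called (0%). Some of the genes above can be grouped by their levels read side by side, without a test of the grouping itself. The libraries did not overlap at 27.7% of genes between MCAO and sham and at 19.9% between the occluded groups. Hspa1a, Bnip3, Ddit3, Lrg1, Lcn2 and Ackr1 stood above the sham range in both occluded groups. Vcam1, Fosl2, Hes1, Hey1, Bmx and Ankrd37 stood highest in the Hdac2-labelled libraries, above every library of the other groups. Vcam1 and Ankrd37 also lay above the sham range in the MCAO libraries. Mfsd2a, Slc38a3, Bcl2, Nqo1 and Mcph1 stood lowest in the Hdac2-labelled libraries, below every sham and every MCAO library. Genes named for small p-values against sham were more likely to stand clear of it. Nrp1, Plpp3, Nrep, Lmntd1, Fzd6 and Adamts5 were below the sham range in both occluded groups. Adamts1, Tnfaip3 and Bmx, like Nr4a1 and Nr4a2, lay above the sham range in the Hdac2-labelled and below it in the MCAO libraries, and Bcl2l1 lay the other way round.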

How the data were processed

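Sorted cortical endothelial cells were sequenced in 18 libraries, 3 in each of 6 groups, with a SMART-Seq v4 PLUS kit and paired-end reads, per the labels' protocols. FastQC, cutadapt, STAR, featureCounts and DESeq2 and the build mm10 are named, without settings or versions, in the submitters' processing notes; strand handling is not given in the sources used here. The deposited values are whole numbers per gene for 21638 rows, under a name that calls them normalised counts. Library totals lay between 25791401 and 57576255. The values were analysed as raw counts because they are whole and their totals differ. Scaling before deposit could affect the p-values and the limit of 3 counts, and was not tested. Even numbers made up 77.3% to 89.4% of the values from 1 to 20, so an analysis of halved counts was added among the alternatives. No column of per-sample values was left without a sample.

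All libraries were fitted together with edgeR 4.0.16 in R 4.3.3 (quasi-likelihood F-test, TMM scaling, 6 group means). The filter kept the 17094 genes that reached 10 counts in 3 or more libraries, and p-values were adjusted by Benjamini-Hochberg over all of them and called under 0.05. Standard errors are the fold change divided by the square root of F. DESeq2 1.42.0 and limma 3.58.1 (voom with sample weights) were alternatives, as were RLE scaling, other filters, other sets of libraries, a covariate for olfactory and vomeronasal receptor counts, a replicate block and leaving out each library. Exact permutation tests used SciPy 1.17.1. The scripts were tested on simulated data.

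The comparison and the gene lists were chosen with earlier results of these data known, so no list serves as independent evidence. Genes were named by rule: Hdac2, the called genes, the 12 higher and 12 lower genes with the smallest p-values among those with a mean count of at least 50 in 1 group and no overlap, up to 3 per list with the smallest p-values, Nr4a1 and Nr4a2, and further list members for their role. Lists are described by counts and medians and were not tested. A count of 3, taken as the limit of a count of 0, covers counting error only and takes each count as a separate event. Values of a few list members are not reported here.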

Additional observations from a re-analysis of the deposited data

Results flagged for a closer look

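Nr4a1 and Nr4a2 differed between the Hdac2-labelled and the MCAO libraries in the direct test, by log2 values of 2.15 and 2.85 in the Hdac2-labelled minus MCAO direction (edgeR adjusted p = 0.0147 and 0.0109), higher in 3 of 3 libraries. The sham libraries lay between both groups for each gene. The edgeR adjusted p-values over the alternatives ran up to 0.266 for Nr4a1 and 0.239 for Nr4a2, both reached with 1 MCAO library left out.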

How the results depend on the processing

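Against sham, 0 genes were called with edgeR, with the replicate block, with globin genes left out, with halved counts and without any 1 of the 6 libraries (0 to 0). Of the other settings, RLE scaling called 2, no filter on low counts 1, a count of 20 in 6 libraries 1, DESeq2 237 (134 higher), voom 266 (223 higher), the 6 libraries alone 8, the 12 ipsilateral libraries 2, the receptor covariate 6 and sham of both sides 16. The 1221 genes at an unadjusted p-value under 0.05 became 2561 with voom, 1114 with the replicate block, and 801 to 1393 with 1 library left out, lowest without sham library 1. The 4 hypoxia, 4 interferon and 4 adhesion genes at that level became 8, 6 and 6 with DESeq2, 10, 8 and 6 with voom and 6, 7 and 4 with the receptor covariate. For MCAO against sham, DESeq2 called 71 and voom 1273. In the direct test RLE called 4, DESeq2 238, voom 32, the replicate block 2, and leaving out 1 library 0 to 18, with 18 without MCAO library 3. Same-numbered Hdac2-labelled and sham libraries correlated at 0.19, -0.0584 and -0.0308 in their deviations from the group means, so the numbers were not treated as pairs, and not every library correlated best with its own number. The median of all genes moved to -0.13 with voom and to -0.13 without Hdac2-labelled library 3. Of 126 genes with values, 116 kept their sign over 18 alternatives and 60 were called in at least 1.

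Small differences of 10 named genes changed sign, in all cases without a call. With 1 library left out, Abcb1a ran from -0.15 to 0.052, Cldn5 from -0.38 to 0.30, Col4a1 from -0.61 to 0.12, Ctnnb1 from -0.15 to 0.11, Egr1 from -0.27 to 0.42, Ezh2 from -1.70 to 0.43, Flt1 from -0.24 to 0.024, Hdac1 from -0.52 to 0.15, Id1 from -0.30 to 0.10 and Jun from -0.23 to 0.56. With RLE scaling and DESeq2, Abcb1a was at 0.016 and Hdac1 at 0.0034. With voom Ctnnb1 was at -0.052, Id1 at 0.038 and Jun at -0.12, and Jun was at -0.023 with the receptor covariate. With sham of both sides Ezh2 was at 0.12 and Flt1 at 0.0066. Ctnnb1 was at -0.0044 with no filter, -0.0060 with the stricter filter, -0.0011 with 6 libraries, -0.013 with 12 and -0.010 with halved counts. The medians of the deacetylase, transcytosis, VEGF, Notch, BMP, basement membrane, cell cycle, ATF4, cholesterol, apoptosis and Polycomb lists changed sign in at least 1 setting. So did those of the endothelial, fibroblast, neuronal, and lymphocyte and neutrophil markers. The causes were not tested. Depth limits statements on genes under about 0.1 CPM, where a library holds about 3 counts. The limit would be higher if both mates of a read pair were counted.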
